A study of Homo sapiens with 5 samples.

Results

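Of the 2272 FOXO3A peaks listed for U-937 replicate 1, 513 had a summit within 1000 bp of a boundary (a start or an end) of at least 2 different protein-coding or lncRNA genes, and these paired-boundary peaks are described here. They were chosen by position alone, with gene spans from the RefSeq annotation of GRCh38.p14, on chromosomes 1 to 22 and X. They made up 22.6% of the peaks of that library and 42.7% (exact 95% interval 39.9 to 45.5) of its 1202 peaks at any gene boundary. The other 689 boundary peaks lay near a single gene. Of the paired peaks, 291 lay between coding genes (56.7%), 219 between a coding gene and a lncRNA gene (42.7%), and 3 between lncRNA genes. A peak near 2 coding genes and a lncRNA gene was counted as coding-coding.

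U-937 and THP-1 are established human cell lines with monocytic features, both grown in medium with serum and labelled as acute myeloid leukemia cells. CUT&Tag used an antibody to FOXO3A and a tethered Tn5 transposase that cuts the DNA around the antibody, and the same antibody was used in all libraries. U-937 had 2 libraries and THP-1 had 3, no perturbation of FOXO3A separated them, and each line stands for 1 culture as far as the labels say. U-937 replicate 2 and THP-1 replicates 2 and 3 had 0 peaks, U-937 replicate 1 had 2272 and THP-1 replicate 1 had 1282. Every value below therefore comes from 1 library per line, with no replicate check and no test between conditions. The fold enrichment and the −log10 q of a peak are the authors' own values. The sources used here give neither the background behind them nor the read depth. Intervals cover counting error only.

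FOXO3A is a forkhead transcription factor that binds DNA through a winged-helix domain and that phosphorylation by AKT holds in the cytoplasm. In haematopoietic cells it is known for genes of quiescence, oxidative stress resistance, DNA repair and autophagy. Many human genes are arranged head to head, transcribed away from each other from a shared GC-rich promoter that usually lacks a TATA box, and such bidirectional promoters are known to serve many housekeeping, DNA repair and mitochondrial genes. The partner can also be a lncRNA, named with the suffix DT (divergent transcript) or AS (antisense) after the coding gene.

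The DNA between both starts is shown first for 9 divergent pairs, since the peaks described below sit on or beside it. The stretches were read from RefSeq promoter windows of GRCh38.p14 and run 5′ to 3′ on the plus strand, from the base after the start of the minus-strand gene to the base before the start of the plus-strand gene. Capitals mark every match, on either strand, to the motif letters searched: GTAAACA (the FOXO element), TAAACA (the forkhead core), CAAAACA (the insulin response element), CCGGAAG (ETS), CGCATGCG (NRF1), GGGCGG (SP1 box), CCAAT (the box bound by NF-Y), CACGTG (E-box), TGACGTCA (CRE), AAGATGGCG (YY1), TATAAA (the letters bound by TBP) and TGANTCA (AP-1). The core TAAACA lies within the FOXO element, and other matches can also overlap. The first pair joins cyclin T2, a subunit of the elongation factor P-TEFb, to its antisense lncRNA (215 bases, chr2:134918607-134918821, fold enrichment 12.6), and the summit fell on base 74.
CCNT2-AS1/CCNT2: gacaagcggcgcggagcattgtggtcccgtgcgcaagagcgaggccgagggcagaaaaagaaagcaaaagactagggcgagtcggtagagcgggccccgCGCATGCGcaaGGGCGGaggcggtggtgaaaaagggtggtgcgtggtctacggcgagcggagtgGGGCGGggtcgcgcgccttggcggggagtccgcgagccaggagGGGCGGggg

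The next 5 stretches hold CCAAT boxes and are shown because that box is the letter string whose share differed by the most percentage points between starts with a peak and paired starts without one, as described further on. DCAKD, a protein with a dephospho-CoA kinase domain, is paired with NMT1, an N-myristoyltransferase (185 bases, chr17:45061132-45061316, fold enrichment 12.1). LRCH4 is paired with FBXO24, an F-box protein (198 bases, chr7:100586130-100586327, fold enrichment 10.3). HSPA8, the constitutive HSC70 chaperone, is paired with the lncRNA LOC124902775 (199 bases, chr11:123062463-123062661, fold enrichment 8.31). RPL35, a protein of the large ribosomal subunit, is paired with ARPC5L, an actin-related protein complex subunit (172 bases, chr9:124861958-124862129, fold enrichment 8.17). SARS2, the mitochondrial seryl-tRNA synthetase, is paired with MRPS12, a mitochondrial ribosomal protein (180 bases, chr19:38930764-38930943, fold enrichment 6.78). Of these stretches, only that of HSPA8/LOC124902775 holds the summit. The SARS2/MRPS12 peak ends at 38930743, before its stretch begins, so the boxes shown do not all lie under a peak.
DCAKD/NMT1: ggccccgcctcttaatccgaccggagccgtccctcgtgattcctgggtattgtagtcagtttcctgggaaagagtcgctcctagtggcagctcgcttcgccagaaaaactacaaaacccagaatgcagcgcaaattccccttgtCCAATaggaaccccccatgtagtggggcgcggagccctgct
LRCH4/FBXO24: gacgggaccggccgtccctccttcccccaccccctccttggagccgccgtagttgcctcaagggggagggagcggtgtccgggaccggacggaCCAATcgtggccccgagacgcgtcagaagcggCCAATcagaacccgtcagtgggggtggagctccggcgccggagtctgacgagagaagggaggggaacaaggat
HSPA8/LOC124902775: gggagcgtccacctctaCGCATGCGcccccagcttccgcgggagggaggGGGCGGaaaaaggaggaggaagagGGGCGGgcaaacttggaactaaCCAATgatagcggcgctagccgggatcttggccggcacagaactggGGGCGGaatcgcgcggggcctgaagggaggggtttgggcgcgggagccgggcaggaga
RPL35/ARPC5L: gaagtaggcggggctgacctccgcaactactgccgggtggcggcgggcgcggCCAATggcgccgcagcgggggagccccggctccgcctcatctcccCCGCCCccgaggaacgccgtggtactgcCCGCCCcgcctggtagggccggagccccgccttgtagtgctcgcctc
SARS2/MRPS12: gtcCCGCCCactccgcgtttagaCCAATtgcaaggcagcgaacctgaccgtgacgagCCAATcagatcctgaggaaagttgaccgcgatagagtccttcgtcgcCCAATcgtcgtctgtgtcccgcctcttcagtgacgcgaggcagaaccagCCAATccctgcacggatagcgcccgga

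The last 3 stretches show the forkhead-type letters that do occur and, beside a strong peak, a stretch without any of the letters searched. The histone pair H2BC11/H2AC11 (247 bases, chr6:27132796-27133042, fold enrichment 7.51) holds CCAAT boxes on both strands, and near its right end a forkhead core on the opposite strand runs into a TATA box, so that their capitals join. PROSER1 and NHLRC3 (221 bases, chr13:39038090-39038310, fold enrichment 8.0) are separated by a stretch whose only match is an insulin response element on the opposite strand, with the summit on base 138. COXFA4, a subunit of cytochrome c oxidase, and LOC107986767 (102 bases, chr7:10940154-10940255, fold enrichment 13.6) are separated by a stretch with no match. The summit lay outside this stretch, 48 bp inside LOC107986767, so the stretch does not describe the letters under the whole peak.
H2BC11/H2AC11: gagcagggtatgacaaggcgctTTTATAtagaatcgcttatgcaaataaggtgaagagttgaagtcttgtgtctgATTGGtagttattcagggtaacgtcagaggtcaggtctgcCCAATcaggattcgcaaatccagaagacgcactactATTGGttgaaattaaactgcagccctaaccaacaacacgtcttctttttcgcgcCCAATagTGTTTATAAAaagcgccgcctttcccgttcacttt
PROSER1/NHLRC3: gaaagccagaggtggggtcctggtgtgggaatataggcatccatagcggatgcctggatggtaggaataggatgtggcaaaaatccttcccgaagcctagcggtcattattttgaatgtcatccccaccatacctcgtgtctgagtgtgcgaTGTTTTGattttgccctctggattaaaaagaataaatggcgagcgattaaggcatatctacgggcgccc
COXFA4/LOC107986767: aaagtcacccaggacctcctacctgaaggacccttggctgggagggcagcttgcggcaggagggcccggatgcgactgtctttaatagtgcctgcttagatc

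Most paired peaks sat on head-to-head promoters. Strand was given for both genes at 373 of the 479 peaks with exactly 2 genes. At 343 of these (92.0%, 88.7 to 94.5) both boundaries at the peak were starts. The genes faced away from each other at 328 (87.9%, 84.2 to 91.1), which was 164 of 194 coding-coding pairs (84.5%, 78.7 to 89.3) and 162 of 176 coding-lncRNA pairs (92.0%, 87.0 to 95.6). A start of one gene met the end of another at 28 peaks, both starts pointed the same way at 15, and 2 ends met at 2 peaks, GYS1/FTL and ZNF385C/NKIRAS2, with fold enrichments of 4.83 and 4.76. Single-gene boundary peaks also lay mostly at starts, 559 of the 599 with a strand (93.3%). The 513 peaks covered 511 gene sets, because the pairs SUFU/ACTR1A and ZBTB8OS/RBBP4 each had 2 separate peaks, and each such peak is counted in the numbers of pairs given here.

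Of all base pairs within 1000 bp of a coding or lncRNA gene boundary, 10.0% lay within that distance of at least 2 genes, whereas 42.7% of the boundary peaks did. No test was made of this difference, and starts and ends count alike in that 10.0%, whereas most boundary peaks lay at starts. At the starts themselves, 5186 of 15812 coding and 2825 of 11383 lncRNA starts had another gene's boundary within 1000 bp. The 10.0% is therefore not a matched base for these peaks, and the difference from 42.7% overstates any preference for paired sites. Peaks with more than 2 genes were few: 33 had 3 genes and 1, at POC1B-DUSP6/POC1B/POC1B-GALNT4/POC1B-AS1, had 4, with a fold enrichment of 4.48. A read-through gene, annotated across both neighbours, was among the genes at 20 peaks. The paired peaks named 1055 genes in all, 807 coding and 248 lncRNA.

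Starts with a close divergent partner had a summit within 1000 bp more often than starts without any neighbour. Of 2753 coding starts with the divergent start of another gene up to 1000 bp upstream, 395 had a U-937 summit within 1000 bp (14.3%, 13.1 to 15.7), against 502 of 10626 coding starts with no other gene boundary within 1000 bp (4.72%, 4.33 to 5.14). The share was 17.0% (15.2 to 18.9) where a partner was coding and 10.6% (8.90 to 12.6) where the partners were lncRNA genes only. The share also varied with the spacing: 26.4% (22.8 to 30.2) of coding starts had a peak where the nearest partner began 251 to 500 bp away and 23.7% (18.1 to 30.1) at 501 to 1000 bp, against 9.94% (8.66 to 11.3) at 1 to 250 bp. Among lncRNA starts, 127 of 1164 with a divergent coding partner had a peak (10.9%, 9.18 to 12.8), 5 of 317 with only a divergent lncRNA partner (1.58%, 0.514 to 3.64), and 59 of 8558 with no other boundary nearby (0.689%, 0.525 to 0.888). The partners of a pair share a peak and are not independent, so these intervals are too narrow. A summit at the partner's start also counts for a start with a close partner, and a lone start has no such addition. Part of the difference in shares is therefore built into the count, and how much was not tested. These counts used the 15812 coding genes with a promoter entry.

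**Figure D1:**
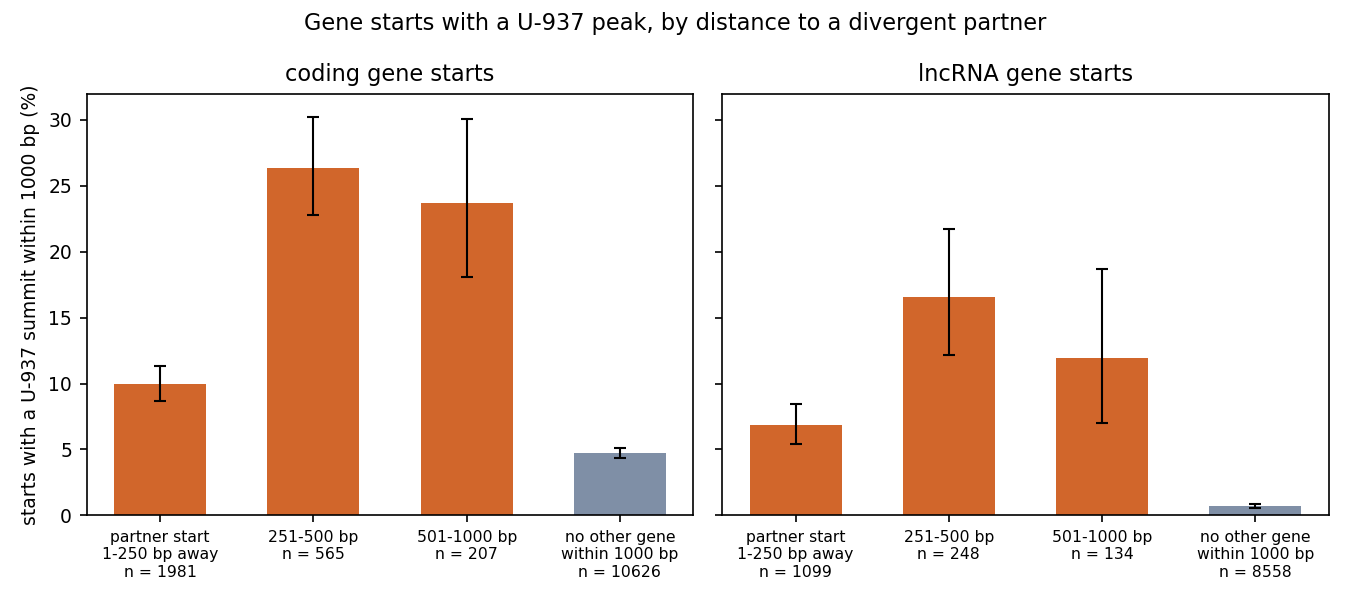
Share of coding (left) and lncRNA (right) gene starts with a U-937 summit within 1000 bp, in percent, for starts with a divergent partner at 3 spacings (orange) and for starts with no other gene boundary within 1000 bp (grey). Error bars are exact 95% intervals, and starts with a partner 251 to 500 bp away stand highest in both panels, at 26.4% for coding and 16.5% for lncRNA genes.

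The pairing rule puts both starts within 1000 bp of the summit, which limits the spacing of head-to-head starts at these peaks. The median start-to-start distance over 328 pairs was 181.5 bp (interval of the median 145 to 203), 203 bp (166 to 258) for coding-coding and 153 bp (104 to 195) for coding-lncRNA pairs. In 83 pairs (25.3%) the transcribed spans overlapped at their 5′ ends. The starts were 1 to 250 bp apart in 124 pairs, 251 to 500 bp in 92, 501 to 1000 bp in 27 and farther in 2. The extremes were DYNLT4/BTBD19 with 1172 bp between the starts and TBCK/AIMP1 with an overlap written as −1139 bp. Short spacing is not particular to pairs with a peak. Of 2753 coding starts with a divergent partner within 1000 bp, with or without a peak, 1981 had it at 1 to 250 bp. Another 565 had it at 251 to 500 bp and 207 at 501 to 1000 bp, counted as starts and not as pairs.

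In the 245 pairs with a gap, the summit lay between the starts in 142 (58.0%) and inside a gene, beyond one of the starts, in 103. It was a median of 105 bp (92 to 115) from the nearer start and 228 bp (207 to 239) from the farther one. It lay within 100 bp of the midpoint in 52.7%, within 200 bp in 84.9% and within 300 bp in 93.5%. Of the 103 summits inside a gene, 50 were in the minus-strand and 53 in the plus-strand gene. In the 115 divergent coding-lncRNA pairs, the summit was nearer the lncRNA start in 73 (63.5%, 54.0 to 72.3) and nearer the coding start in 42. Its median distance was 132 bp (111 to 175) from the lncRNA start and 174 bp (151 to 189) from the coding start.

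**Figure D2:**
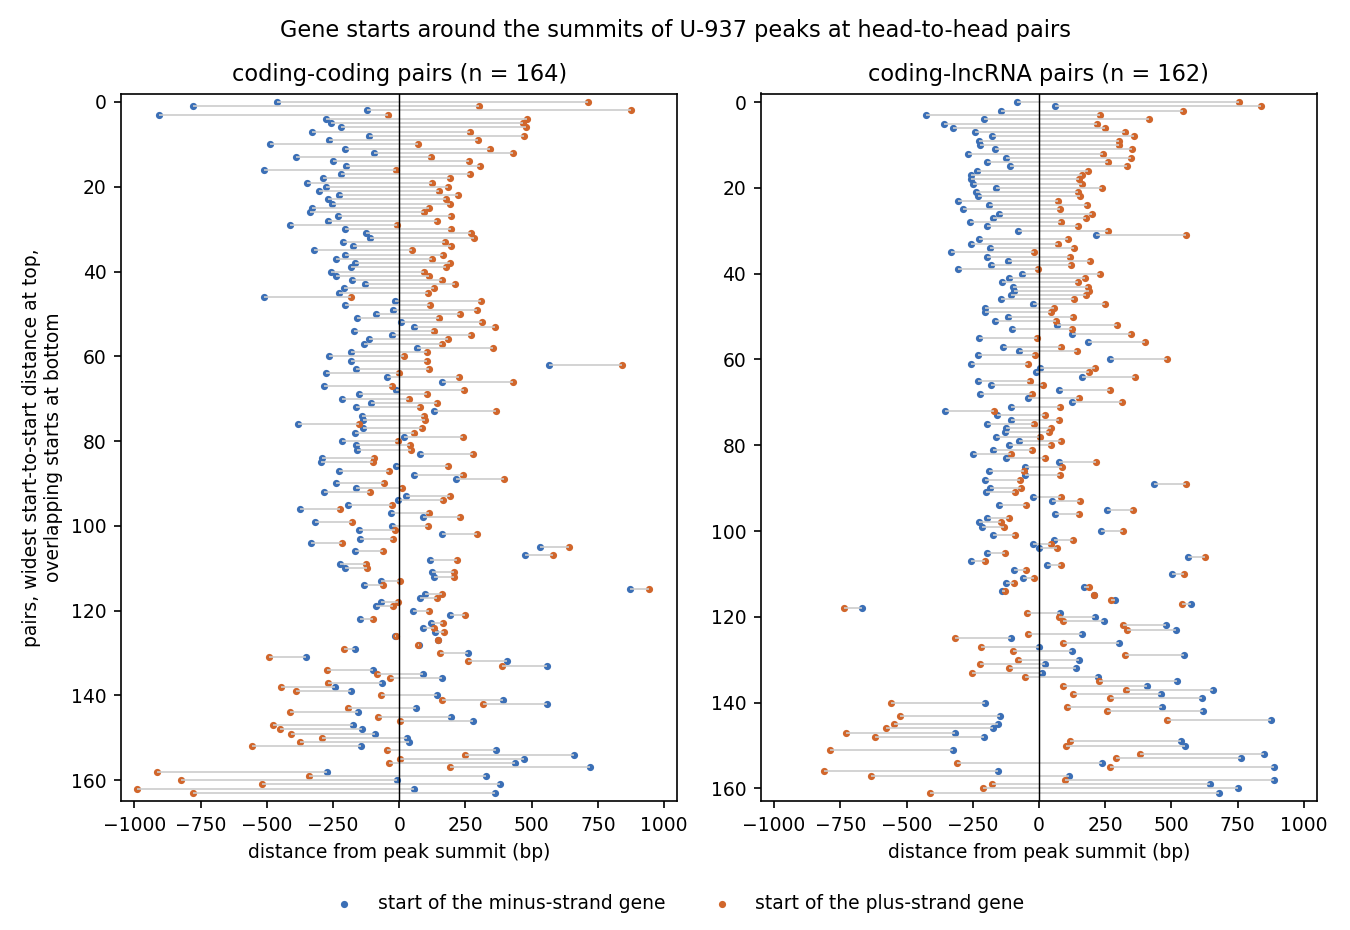
Starts of the minus-strand gene (blue) and the plus-strand gene (orange) around the summit (0 on the horizontal axis, in bp) for 164 coding-coding pairs (left) and 162 coding-lncRNA pairs (right), 1 pair per row. Rows run from the widest start-to-start distance at the top to overlapping starts at the bottom, and in the upper rows the summit stands between the starts in most pairs.

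Paired peaks were no taller than single-gene peaks beyond the intervals of their medians. The median fold enrichment was 6.65 (interval of the median 6.40 to 6.88, range 2.89 to 13.8) at paired peaks, 6.45 (6.30 to 6.68) at single-gene boundary peaks, 5.86 (5.69 to 6.03) in gene bodies and 5.60 (5.47 to 5.77) between genes. Coding-coding peaks had a median of 6.68 (6.40 to 6.98) and coding-lncRNA peaks 6.50 (6.21 to 6.93). A −log10 q of at least 5 was reached by 57.1% (52.7 to 61.4) of paired peaks, 52.5% (48.7 to 56.3) of single-gene boundary peaks, 41.4% in gene bodies and 35.2% between genes. Paired peaks were 22.6% of the library, and they were 1 of its 10 strongest peaks (10.0%, 0.253 to 44.5), 19 of its 50 strongest (38.0%, 24.7 to 52.8), 36 of its 100 strongest (36.0%, 26.6 to 46.2) and 66 of its 200 strongest (33.0%, 26.5 to 40.0). Peaks were narrow, with a median width of 258 bp at paired and 248 bp at single-gene boundaries.

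**Figure D3:**
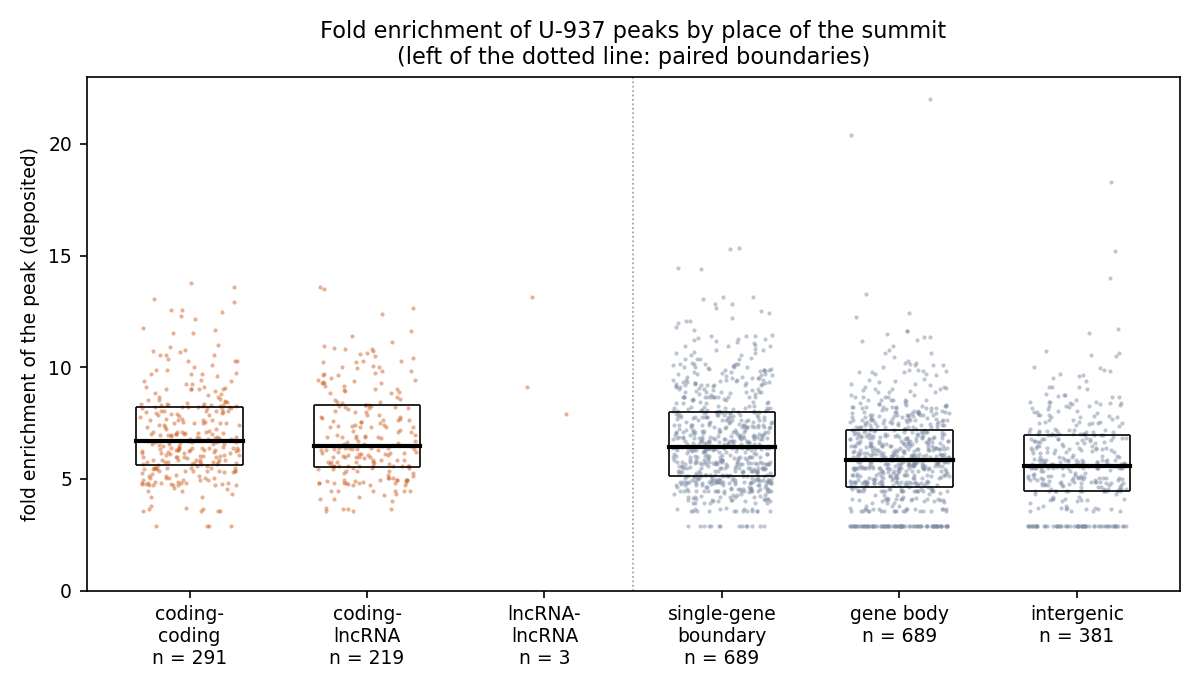
Deposited fold enrichment of each U-937 replicate 1 peak (1 point each, vertical axis), with paired boundaries in orange left of the dotted line and other places in grey. Thick lines are medians and boxes span the quartiles, except for the 3 lncRNA-lncRNA peaks; the medians of coding-coding (6.68), coding-lncRNA (6.50) and single-gene boundary peaks (6.45) lie close together.

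Among head-to-head pairs with a gap, the median fold enrichment was somewhat higher where the starts were farther apart, within overlapping intervals. The median fold enrichment was 6.40 (6.03 to 6.78) at 1 to 250 bp, 7.05 (6.50 to 7.52) at 251 to 500 bp, 7.33 (6.17 to 8.29) at 501 to 1000 bp, and 6.71 (5.86 to 7.31) where the starts overlapped. The intervals of all these classes overlap, also those of the narrowest and the widest spacing. Across the 245 pairs with a gap, Spearman's rho between spacing and fold enrichment was 0.19 and Pearson's r 0.19, a description over peaks of 1 library.

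The strongest coding-coding peak lay between PNO1, a ribosome assembly factor, and DNAAF10, a dynein assembly factor, with a fold enrichment of 13.8 and the summit 123 bp from PNO1 and 238 bp from DNAAF10. SHOC2, a scaffold that activates RAF kinases, and BBIP1, a subunit of the ciliary BBSome, start 4 bp apart, and their peak had a fold enrichment of 13.6 with the summit 11 bp from one start and 15 bp from the other. VMAC/NDUFA11, with a complex I subunit, had 13.1, a start-to-start distance of 1082 bp and the highest −log10 q of any paired peak (25.8). MYL11/TBC1D10B, a muscle myosin light chain beside a RAB GTPase-activating protein, had 12.9.

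The next coding-coding peaks spanned widely different roles. BCKDHA, the E1 alpha subunit of the branched-chain ketoacid dehydrogenase, and EXOSC5, an RNA exosome subunit, had a fold enrichment of 12.6. The mitochondrial chaperonin genes HSPD1 and HSPE1, with the read-through gene HSPE1-MOB4, had the same value of 12.6. TCTA/RHOA, with the small GTPase RHOA, had 12.5, and DRC3/TOM1L2, with a dynein regulatory complex subunit, had 12.3. The list went on with NMT1/DCAKD at 12.1, the trafficking subunits TRAPPC6A/BLOC1S3 at 11.8, SEC61B/ALG2 (a translocon subunit and a mannosyltransferase of N-glycan assembly) at 11.7, and PRKCSH/ODAD3 (the beta subunit of glucosidase II and an outer dynein arm docking protein) at 11.5. The starts of PRKCSH and ODAD3 overlap by 147 bp, written as −147. The other 2-gene pairs among these strongest coding-coding peaks have a gap.

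The strongest coding-lncRNA peak was COXFA4/LOC107986767 at 13.6. OGA, the enzyme that removes O-GlcNAc from proteins, and KCNIP2-AS1 start 624 bp apart and had 13.5. CCNT2/CCNT2-AS1 had 12.6, and DDX39B, an RNA helicase of splicing and mRNA export, with DDX39B-AS1 had 12.4. KPNB1, importin beta, with KPNB1-DT had 11.6. MRPL54, a mitochondrial ribosomal protein, had 11.4 beside LOC105372248, the chromatin reader PHF12 had 11.1 beside LOC105371716, and the transcription activator CAMTA1 had 11.0 beside CAMTA1-DT. Of the 222 lncRNA entries at coding-lncRNA peaks, 101 carried a LOC number as their only name, 55 an AS suffix and 51 a DT suffix. At 83 of the 219 peaks (37.9%) the lncRNA was named with DT or AS after the coding gene at the same peak.

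The 3 lncRNA-lncRNA peaks were LINC03015/LINC03014, LINC01144/LOC105378691 and LOC105372468/ZSCAN5A-AS1, with fold enrichments of 13.1, 9.13 and 7.89. The first ranked 5 among all paired peaks. The pairs LINC03015/LINC03014 and LINC01144/LOC105378691 are head to head, with starts 280 and 164 bp apart, and LOC105372468 and ZSCAN5A-AS1 start on the same strand.

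At the limit of the definition, the second gene of MAML1/CANX lay 999 bp from the summit (fold enrichment 6.68) and that of YY1AP1/DAP3 992 bp (5.11). Just outside, the second gene of JUN/JUN-DT lay 1004 bp from the summit of a peak with 12.1, and the pair ULK3/SCAMP2 missed it at 1016 bp (4.85).

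Of 19821 coding genes, 4.07% lay at a paired U-937 peak and 7.04% at any U-937 boundary peak. The list of known divergent pairs, a hand-made list of genes known to share a bidirectional promoter, had 14 of its 48 genes at 7 paired peaks. These genes are paired by the way the list was made, so the 17.0% of coding starts with a divergent coding partner that had a peak is the nearer figure. Among the 7 peaks were HSPD1/HSPE1 (12.6), the lipid acyltransferase and ubiquitin ligase genes AGPAT1/RNF5 (10.3), the subunits of the mitochondrial trifunctional protein HADHB/HADHA (9.09), the DNA damage kinase ATM with the histone gene coactivator NPAT (8.66), SARS2/MRPS12 (6.78) and the antigen processing genes TAP1/PSMB9 (6.68). In AGPAT1/RNF5, HADHB/HADHA, ATM/NPAT and TAP1/PSMB9 the summit lay between both starts, which are 297, 307, 429 and 488 bp apart. In HADHB/HADHA the summit was 149 and 158 bp from the starts.

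Genes of DNA replication and repair had 8 of 100 members at paired peaks, against 4.07% of all coding genes. Besides ATM (8.66), these included the recombination gene XRCC3 beside ZFYVE21 (8.47) and the Fanconi anemia gene FANCB beside MOSPD2 (8.05). Cell cycle genes had 6 of 59: the CDK-binding subunits CKS2 beside LOC105376136 (8.85) and CKS1B beside SHC1 (6.15), cyclin D3 (CCND3) beside TAF8 (8.66) and the kinase CDK2 beside RAB5B (8.37) were the highest. The exact intervals of both shares, 3.52 to 15.2% and 3.82 to 20.8%, include the background. Over the 20 lists, the interval began above the background for the known divergent pairs (17.0%), aminoacyl-tRNA synthetases (4.95%), the spliceosome (4.92%), histones (4.18%) and oxidative phosphorylation (4.14%). These bounds are not adjusted for the number of lists, and no list was tested. They also count genes that share a peak as separate, and are too narrow for the known pairs (14 genes at 7 peaks) and the histones (7 genes at 4 peaks). At any U-937 boundary peak, paired ones included, the same lists also stood above the 7.04% of all coding genes. The shares there were 33.3% for the known pairs, 26.5% for the synthetases, 19.4% for the spliceosome, 14.5% for histones and 11.9% for oxidative phosphorylation. This was not particular to them. Cytosolic ribosomal proteins (19.3%), cell cycle (16.9%) and DNA replication and repair genes (14.0%) also stood above 7.04%. Only the textbook FOXO targets and the lymphocyte, erythroid, hepatocyte and neuronal lists stood below it.

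The following shares can be read against the 4.07% of all coding genes. Spliceosome genes had 8 of 72 (11.1%, 4.92 to 20.7), among them SNRPA beside ACTMAP and SNRPD3 beside GUCD1 (8.20 each), CDC5L beside LOC124901323 (7.31) and SNRNP25 beside POLR3K (6.68). RNA polymerase subunits and general transcription factors had 9 of 105 (8.57%, 3.99 to 15.6), led by TAF8 (8.66), POLR3F beside DZANK1 (7.09), POLR1B (6.88) and POLR3K (6.68), so that CCND3/TAF8 and POLR3K/SNRNP25 join members of different lists. Aminoacyl-tRNA synthetases had 5 of 34 (14.7%, 4.95 to 31.1), with YARS1 beside S100PBP (7.02), SARS2 (6.78) and CARS2 beside ING1 (6.03). Cytosolic ribosomal proteins had 5 of 83 (6.02%, 1.98 to 13.5), with RPL7 beside RDH10 (8.34), RPL35 (8.17), RPS12 beside LOC107986644 (8.05) and RPL39 beside LOC107985694 (7.55).

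The list of oxidative phosphorylation subunits and assembly factors had 10 of 118 (8.47%, 4.14 to 15.0). Its highest members were NDUFA11 (13.1), COX14 beside GPD1 (9.74), NDUFAF8 beside TEPSIN (7.07) and NDUFAF7 beside CEBPZ (6.30). COXFA4, the cytochrome c oxidase subunit at the strongest coding-lncRNA peak (13.6), is not on this list and is not counted in it. Mitochondrial ribosomal proteins had 4 of 77 (5.19%, 1.43 to 12.8): MRPL54 (11.4), MRPS18B beside PPP1R10 (7.84), MRPS12 (6.78) and MRPL50 beside ZNF189 (5.38). Proteasome subunits had 4 of 39 (10.3%, 2.87 to 24.2): PSMC4 beside LOC124904720 (8.54), PSMD9 beside HPD (6.82), PSMB9 (6.68) and PSMC5 beside FTSJ3 (4.80). Replication-dependent histone genes had 7 of 69 (10.1%) at 4 peaks, since neighbouring copies share a peak, and H2BC11/H2AC11 and H2AC12/H2BC12 each had 7.51. These histone genes have near-identical copies, so the assignment of reads among them is uncertain.

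For the lists tied to FOXO signalling, the intervals of the shares at paired peaks were wide and included the 4.07% of all coding genes. Of 52 textbook FOXO targets, 0 lay at a paired peak (exact interval up to 6.85%) and 3 at any U-937 boundary peak (5.77%, against 7.04% of all coding genes). The AKT pathway upstream of FOXO had 9 of 40 at any boundary peak (22.5%) and 2 at paired peaks (5.0%, 0.611 to 16.9), GSK3B with GSK3B-DT (8.31) and the phosphatase subunit PPP2CA with PPP2CA-DT (5.78). Autophagy and lysosome genes had 2 of 50 (4.0%, 0.488 to 13.7), the conjugation enzyme ATG3 beside SLC35A5 (9.39) and UVRAG beside UVRAG-DT (7.20). Myeloid transcription factors had 0 of 36 (interval up to 9.74%). Of the monocytic markers, CD68 alone of 10 lay at a paired peak, shared with SENP3-EIF4A1 and EIF4A1 (6.30), and the T and B lymphocyte (6), erythroid (4), hepatocyte (20) and neuronal (20) lists had 0. Peaks do not measure expression, so these markers do not check the cell type.

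**Figure D4:**
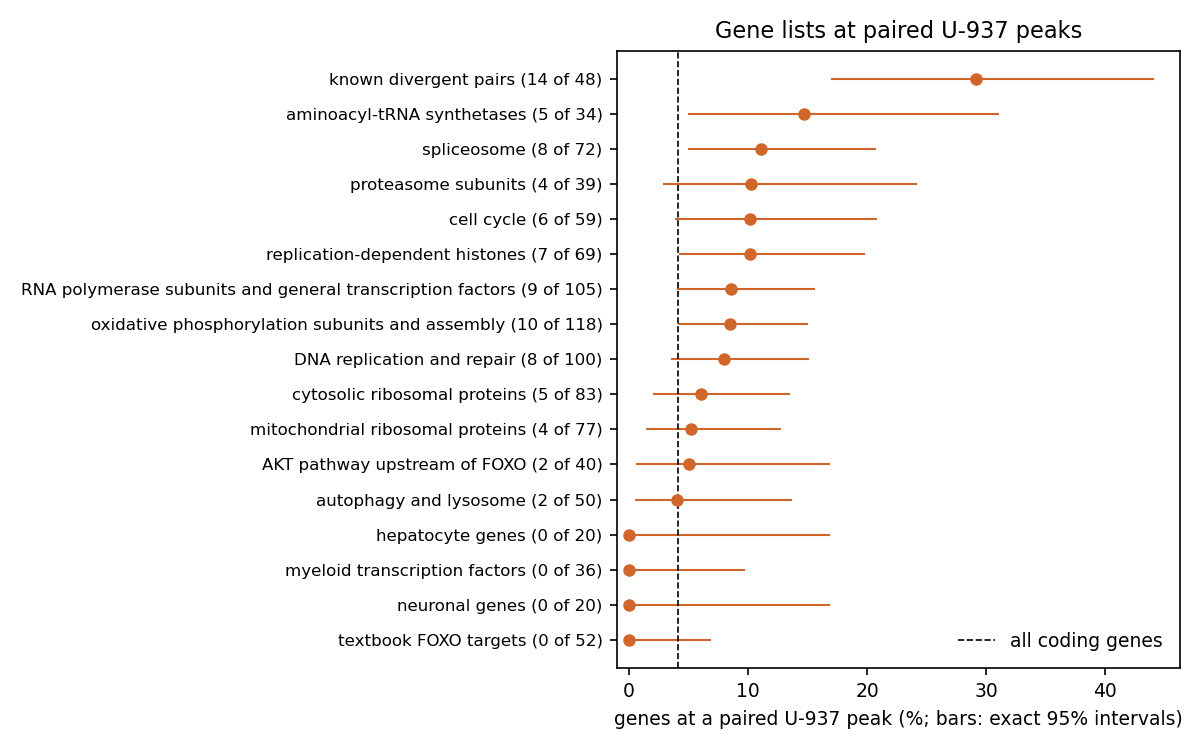
Share of each gene list at a paired U-937 peak, in percent (horizontal axis), with exact 95% intervals and the counts beside each name. The dashed line is the share of all coding genes (4.07%), and only lists of at least 20 genes are drawn.

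FOXO elements were not more frequent at these promoters than elsewhere. Promoter windows of 250 bases before to 50 bases after the start were present for 832 starts at 459 paired peaks. The FOXO element GTAAACA was found on either strand in 1.68% of them (0.923 to 2.81), in 1.83% (0.883 to 3.35) of windows at single-gene boundary peaks, in 2.29% (1.95 to 2.66) of 7040 windows at paired boundaries without a peak and in 3.44% (3.22 to 3.66) of all 27195 windows. The forkhead core TAAACA was found in 6.61%, 5.32%, 7.26% and 12.5% of those sets, and CAAAACA in 3.00%, 2.94%, 3.17% and 4.93%. The windows do not always reach the summit and no genome sequence was used here, so letters under the rest of a peak were not searched. Median GC content was 64.0% at paired peaks and 58.3% over all windows, and its part in these shares was not tested.

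The 14 windows with a FOXO element held 10 distinct sites, of which 4 lay within 100 bp of the summit. They are printed with the bases around the element, 5′ to 3′ on the strand of the gene named first, because they are the places where a full FOXO element lay closest to a paired summit; the shorter forkhead letters were not measured against summits. RIOK1, a kinase of ribosome maturation, has the element 12 bp from the summit of CAGE1/RIOK1 (chr6:7389590-7389620, fold enrichment 4.80). ASNSD1 has it 51 bp from the summit of ASNSD1/ASDURF (chr2:189661294-189661324, fold enrichment 5.43), where both genes share a start. NDUFAF8, a complex I assembly factor, has it 52 bp from the summit of NDUFAF8/TEPSIN (chr17:81239140-81239170, fold enrichment 7.07). HACL1, a peroxisomal lyase, has it 92 bp from the summit of HACL1/BTD (chr3:15601644-15601674, fold enrichment 6.59). In capitals is the element, written as TGTTTAC where it lies on the other strand.
RIOK1: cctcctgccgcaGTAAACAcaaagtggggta
ASNSD1: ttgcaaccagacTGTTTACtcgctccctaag
NDUFAF8: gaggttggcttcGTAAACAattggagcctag
HACL1: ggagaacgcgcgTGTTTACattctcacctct

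The fold enrichments of these 4 peaks, 4.80 to 7.07, lay on both sides of the median of paired peaks (6.65). The tallest peak with an element in a window was LINC03015/LINC03014 (13.1), where it lay 128 bp from the summit. In the 122 distinct stretches between starts 2 to 250 bp apart, the FOXO element occurred in 0 (exact interval up to 2.98%), the forkhead core in 2 and the insulin response element in 3, while 56 held a CCAAT box (45.9%) and 77 an SP1 box (63.1%).

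CCAAT boxes were more frequent at starts with a peak than at paired starts without one. The set without a peak takes starts with another gene's start or end within 1000 bp, in any orientation. It was not matched in orientation to the paired peaks, which were mostly head to head. In coding genes, 52.2% (48.2 to 56.1) of windows at paired peaks and 50.2% (45.7 to 54.7) at single-gene boundary peaks held CCAAT, against 34.5% (33.1 to 35.9) at paired boundaries without a peak and 36.4% (35.6 to 37.1) of all coding windows. At least 2 boxes were present in 27.8% (24.3 to 31.4), 25.8% (22.0 to 29.9), 12.2% (11.3 to 13.3) and 12.5% of these sets. Their median positions were 107.5, 105, 93 and 93 bp before the start. Taking 1 window per paired peak gave 49.9% (45.2 to 54.6) over all genes, against 49.2% over all 832 windows and 33.0% at paired starts without a peak. The share was 55.3% (50.6 to 59.9) of windows at coding-coding and 41.6% (36.5 to 46.8) of windows at coding-lncRNA peaks. The latter set includes windows of lncRNA genes, and overlapping windows of a pair count separately in both sets. Median GC content of the coding windows was 63.7% at paired peaks, 64.5% at single-gene boundary peaks, 65.7% at paired boundaries without a peak and 62.7% over all.

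For the other letters, coding windows at paired peaks and at paired boundaries without a peak differed by fewer percentage points than for CCAAT. ETS letters were found in 19.8% of coding windows at paired peaks and in 22.3% (21.0 to 23.5) at paired boundaries without a peak, against 14.1% of all coding windows. SP1 boxes were found in 72.9% (69.2 to 76.3) at paired peaks and 73.4% (69.2 to 77.2) at single-gene boundary peaks, against 68.2% (66.9 to 69.6) at paired boundaries without a peak and 58.3% of all. NRF1 letters reached 5.58% (3.92 to 7.68) at paired peaks, 4.43% (3.84 to 5.08) without a peak and 2.90% of all. YY1 letters were found in 5.42% (3.78 to 7.50) at paired peaks, 3.75% (3.21 to 4.35) without a peak and 2.69% of all, E-boxes in 12% (9.53 to 14.8), 9.85% (8.99 to 10.8) and 8.82%, and CRE letters in 2.23% (1.23 to 3.72), 3.34% (2.83 to 3.92) and 2.56%. TATA boxes were found in 4.47% of coding windows at paired peaks, 5.56% without a peak and 9.75% of all. E-boxes were found in 14.0% (11.0 to 17.6) of windows at coding-coding and 6.49% (4.20 to 9.50) of windows at coding-lncRNA peaks. The latter set includes windows of lncRNA genes, so kind of pair and kind of gene cannot be told apart. Windows of both genes of a pair can overlap and count the same letters again, so intervals over windows at paired peaks are too narrow. A match is a description of letters and not evidence of a bound site.

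**Figure D5:**
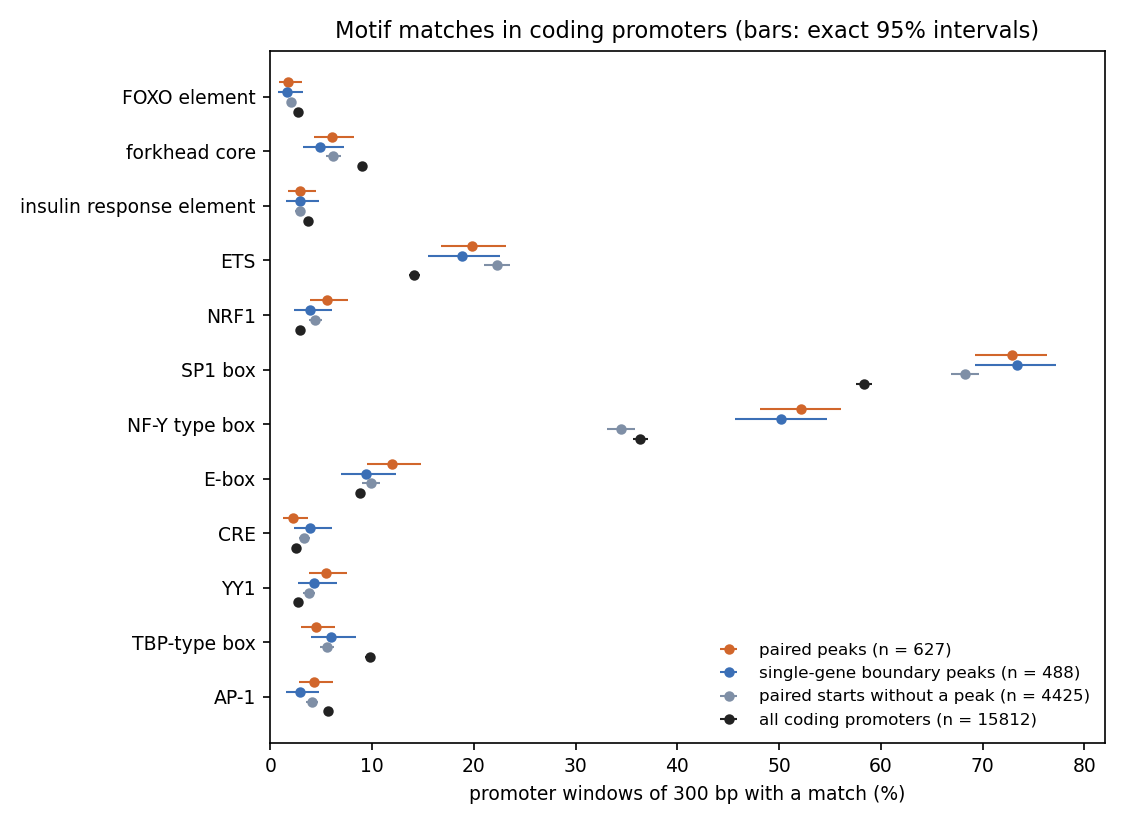
Percent of 300-base coding promoter windows that hold each motif on either strand (horizontal axis) at paired peaks (orange), single-gene boundary peaks (blue), paired starts without a peak (grey) and all coding genes (black), with exact 95% intervals. The grey set takes starts with another gene's start or end within 1000 bp, in any orientation. The NF-Y type box is CCAAT and the TBP-type box is TATAAA, and the NF-Y type box stands higher in both sets with a peak (52.2% and 50.2%) than at paired starts without one (34.5%) and over all coding genes (36.4%).

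Few paired peaks recurred in THP-1. Of the 513 paired U-937 peaks, 4 overlapped a THP-1 peak by at least 1 bp (0.780%, 0.213 to 1.98), as did 8 of 689 single-gene boundary peaks (1.16%) and 25 of all 2272 peaks (1.10%). Fold enrichments of both lists are given side by side but were made within separate lists. VMAC/NDUFA11 had 13.1 in U-937 and 4.71 in THP-1, TIMM13/LMNB2 had 8.78 in U-937 and 5.55 in THP-1, H2AC12/H2BC12 had 7.51 in U-937 and 19.4 in THP-1, and SF3A2/PLEKHJ1 had 4.80 in U-937 and 5.19 in THP-1. NDUFA11 and SF3A2 (a spliceosome subunit) meet their partners head to head, and TIMM13, a mitochondrial import chaperone, meets lamin B2 (LMNB2) head to tail.

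At gene level, 0.222% of coding genes lay at a THP-1 boundary peak, and 12 of the 807 coding genes at paired U-937 peaks did (1.49%, 0.771 to 2.58). Partners of a pair count separately in this share, so its interval is too narrow. The same share for coding genes at single-gene boundary peaks is not given here. The 12 genes belonged to 7 paired peaks. Besides the 4 that overlapped, GSK3B-DT/GSK3B and H2BC11/H2AC11 had a THP-1 peak at the same pair without overlap, with THP-1 fold enrichments of 3.77 and 17.0, and GPR137 of BAD/GPR137/PLCB3 had one with 5.53. Of the 56 THP-1 boundary peaks, 13 were paired (23.2%, 13.0 to 36.4), and THP-1 and U-937 differ in peak number, so these shares were not tested against each other.

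Paired peaks were spread over all chromosomes examined. Chromosome 1 had 66, chromosome 19 had 60 and chromosome 2 had 54. Chromosome 1 held 12.9% of paired peaks, 13.6% of single-gene boundary peaks and 10.3% of the coding genes. For chromosome 2 these shares were 10.5%, 5.66% and 6.33%. Chromosome 19 held 11.7% of paired peaks, 13.5% of single-gene boundary peaks and 7.11% of the coding genes, while chromosome X held 1.75% of paired peaks and 4.28% of the coding genes.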

How the data were processed

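Peak lists of CUT&Tag with a FOXO3A antibody were analysed, 1 list per library. Bowtie2, Picard and the build hg38 are named, with no version or role, per the submitters' processing notes, while the sources used here do not name the peak caller, its settings or its background. The lists have no header, and units were read from the narrowPeak layout. For each peak the authors deposited a whole-number score, its fold enrichment as a linear ratio, and p-values and q-values as −log10. The score was not used for any result. The read depth is unknown. The 3 libraries without peaks held only a statement that none were found.

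Peaks were assigned by summit to boundaries within 1000 bp of the 19821 coding and 17904 lncRNA genes on chromosomes 1 to 22 and X of the RefSeq table (GRCh38.p14). Of its 59792 genes, 831 whose coordinates broke their chromosome's ascending order were left out as genes of other scaffolds. Strand and start came from matching gene IDs to RefSeq promoter windows, which 27195 genes had, 900 of the 1055 genes at paired peaks among them. Chromosome 8, with 26 paired peaks, was not analysed here for orientation, start shares or motifs. Where both windows of a pair covered the stretch between starts, they gave identical letters in 108 of 108 pairs. Shares have exact (Clopper-Pearson) 95% intervals and medians the exact binomial interval of a median.

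No test was run, because each line had 1 library with peaks. The members, gene lists and motifs were chosen with earlier results of these data known. Named items were the 12 strongest coding-coding and 8 strongest coding-lncRNA peaks, all paired peaks overlapping a THP-1 peak, up to 4 members per gene list, the known divergent pairs, peaks with at least 4 genes, and the 2 peaks on each side of the limit. Some items that this rule names are left out of the text. Other items, such as the printed stretches and the extremes of a distribution, were chosen after their values were seen. The counting steps were tested on simulated data. Alternatives covered the window, the summit rule, the −log10 q, read-through, LOC and nested genes, starts only, and the motif. Python 3.11.15, pandas 2.3.3, numpy 2.4.6, scipy 1.17.1 and matplotlib 3.10.9 were used.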

Additional observations from a re-analysis of the deposited data

How the results depend on the processing

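The number of paired peaks stayed within 1.5 times of 513 under every alternative run (373 to 604) except a −log10 q of at least 5, which left 293 and raised the median fold enrichment to 8.05 because weak peaks drop out. Paired peaks were 35.9% of boundary peaks with a 500 bp window, 47.0% with 2000 bp, 35.1% without LOC genes and 36.2% with starts only, against 42.7%. Both boundaries were starts in 96.7% of pairs at 500 bp and 87.5% at 2000 bp, against 92.0%. Coding-coding peaks were 69.9% of paired peaks without LOC genes, most of which are lncRNA genes, and 51.5% with starts only, against 56.7%. The difference in median fold enrichment between coding-coding and coding-lncRNA peaks was 0.185, with an interval from −0.281 to 0.650, and it was −0.192 at a −log10 q of at least 5, so it has no settled sign. The shorter core TAAACA was found in 6.61% of paired windows, against 1.68% for the FOXO element. The other 35 values stayed within their intervals or, for counts of peaks, within 1.5 times. Without U-937 replicate 2 nothing changed, since it held no peaks, and without replicate 1 no list remained. No paired analysis was possible because only replicate 1 of each line held peaks. Strand was missing for 106 of 479 pairs, no control library was used here, and promoter windows cover only part of each peak.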

Other observations

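The stretch between DCAKD and NMT1 holds ACTACAA once on each strand, letters that belong to a promoter element bound by ZNF143. The letters were searched after that stretch was read. They were found, on either strand, in 5.74% (exact 95% interval 4.05 to 7.86) of 627 coding windows at paired peaks, 3.89% (2.36 to 6.01) of 488 at single-gene boundary peaks, 3.59% (3.06 to 4.18) of 4425 at paired boundaries without a peak and 3.14% (2.87 to 3.42) of all 15812. The interval at paired peaks overlaps that of paired boundaries without a peak. At coding-coding peaks the share was 6.58% (4.48 to 9.26) and at coding-lncRNA peaks, with windows of lncRNA genes included, 3.78% (2.08 to 6.27).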
